A study of Rattus norvegicus with 6 samples.

Results

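The genes described here encode enzymes of amino acid breakdown, sugar handling and gluconeogenesis that work mainly in the proximal tubule of the kidney. The set was given as 38 named genes in 10 pathways, and their probes were found by matching RefSeq accessions on the array. Of the 38 genes, 37 had at least 1 named probe among the 15645 genes named on the array. Gldc, the glycine decarboxylase gene, had none and is not analysed here. All 37 were well above background on all 6 arrays, and each entered a comparison that covered 12130 genes.

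The animals were male rats of the Sprague-Dawley stock (Crl:CD(SD)), bought at 5 weeks of age and dosed for 4 weeks, and total RNA was taken from renal cortex. The control group received corn oil. The treated group received 100 mg/kg/day of 4-hydroxy-m-phenylenediammonium dichloride, the salt of an aromatic diamine; the sources used here do not name its vehicle. There were 3 arrays per group, labelled with Cy3, and the study's design calls them biological replicates. The comparison asked which transcripts of the cortex differ after dosing. The control animals shared 1 slide and the treated animals another, each with its own scan, so the effect of slide or scan cannot be told apart from that of treatment below. A level is the log2 signal after each array's 75th percentile was set to 0, a difference is the treated mean minus the control mean, and intervals are 95% intervals from the limma fit. A gene was called where its limma p, adjusted by Benjamini-Hochberg over all 12130 genes, was under 0.05, and the small number of arrays limits the precision throughout.

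Both control replicate 2 and control replicate 3 stood apart. In control replicate 3, transcripts of the liver were far above the other arrays: Alb, which encodes serum albumin, stood at 3.89 against -1.05 and -1.49 in the other controls and -0.58, -1.11 and -0.03 in the treated animals. The summed signal of the 5 liver markers was 27.3 times the 75th percentile on that array and between 1.24 and 2.23 times on the other 5. Of the members also made in liver, Bhmt, Hpd, Ass1 and Hao2 were bright on every array. Bhmt stood at 6.29 on control replicate 3 against 6.37 and 6.14 in the other controls, and Hpd at 6.11 against 6.18 and 6.02. Hao2 stood at 7.93 there against 7.70 and 7.66, and Ass1 at 6.20 against 6.47 and 6.19. The part of liver transcripts in the members' values was not tested. Arg1, the dimmer liver arginase gene, stood at -1.38 there against -2.14 and -2.05. In control replicate 2, Slc7a13, a transporter of the late proximal tubule, stood at 5.89 against 2.51 and 4.23 in the other controls and 4.17, 1.38 and 2.57 in the treated animals. The labelled tissue carried the markers of cortex, with proximal tubule genes such as Slc34a1, the apical phosphate transporter, at 8.33 ± 0.11 in controls (SD, n = 3) and 8.28 ± 0.05 in treated animals (SD, n = 3).

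**Figure D1:**
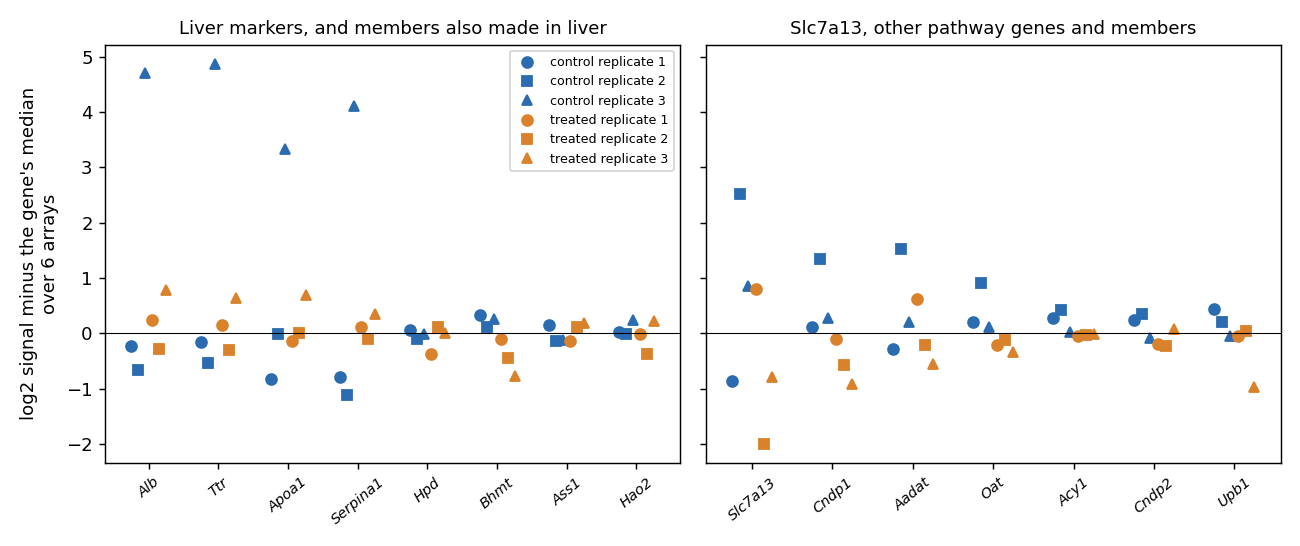
Log2 signal of each array minus the gene's median over the 6 arrays, for liver markers and members also made in liver (left) and for Slc7a13, other genes of the same pathways and members (right); blue is control, orange is treated, and the symbol gives the replicate. Control replicate 3 was far above the rest for Alb, Ttr, Apoa1 and Serpina1, while the 4 members beside them were bright on every array; control replicate 2 was highest for Slc7a13, Cndp1, Aadat and Oat.

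The proximal tubule takes back filtered amino acids and sugars and also reworks them. It breaks down glycine, proline, tyrosine and D-amino acids, makes arginine from citrulline and creatine precursor from arginine, takes in fructose and inositol for metabolism, and is the site of renal gluconeogenesis. Many of these enzymes are found in few other organs beside the liver. Factors of the HNF1 and HNF4 families keep such genes active in the proximal tubule, and Pck1 also answers cAMP through a response element close to its start.

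Promoter sequences were available for 34 of the 38 members (RefSeq, build GRCr8, from 250 bases before to 50 bases after the start of the gene). They are shown where a motif of these regulators was found, because the members that share it can then be set beside their differences. The HNF4 letters CAAAGTCCA, searched on both strands like every motif here, were in 3 of the 34 promoters and in 0.391% of all 33469 promoters of the same length. They start at -48 in Agxt2, at -74 in Kmo and at -71 in Pipox, counted from the gene's start. The variant cAMP element TTACGTCA was in 1 of the 34, at -93 in Pck1, and in 0.807% of all. Capitals mark these letters in the sequences below, which are written 5′ to 3′ along the gene's strand and lie at chr2:61063166-61063465 (plus strand), chr13:90089271-90089570 (plus strand), chr10:63280390-63280689 (minus strand) and chr3:182348322-182348621 (plus strand).
Agxt2 promoter: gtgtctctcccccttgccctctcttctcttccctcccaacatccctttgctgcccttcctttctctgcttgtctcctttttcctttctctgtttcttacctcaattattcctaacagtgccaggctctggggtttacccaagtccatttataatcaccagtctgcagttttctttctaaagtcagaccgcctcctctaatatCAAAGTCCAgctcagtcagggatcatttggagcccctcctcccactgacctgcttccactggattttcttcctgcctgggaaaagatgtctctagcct
Kmo promoter: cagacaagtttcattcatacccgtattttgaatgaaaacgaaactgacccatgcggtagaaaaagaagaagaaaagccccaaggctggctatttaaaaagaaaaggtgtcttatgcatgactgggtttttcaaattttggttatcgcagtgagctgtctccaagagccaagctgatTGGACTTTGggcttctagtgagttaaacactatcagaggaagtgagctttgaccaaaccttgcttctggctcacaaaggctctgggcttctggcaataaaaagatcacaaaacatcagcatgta
Pipox promoter: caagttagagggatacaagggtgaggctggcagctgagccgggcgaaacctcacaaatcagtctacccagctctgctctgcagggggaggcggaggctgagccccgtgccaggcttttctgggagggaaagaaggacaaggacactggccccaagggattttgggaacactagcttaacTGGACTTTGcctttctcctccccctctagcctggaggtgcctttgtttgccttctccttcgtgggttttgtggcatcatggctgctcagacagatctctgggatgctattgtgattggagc
Pck1 promoter: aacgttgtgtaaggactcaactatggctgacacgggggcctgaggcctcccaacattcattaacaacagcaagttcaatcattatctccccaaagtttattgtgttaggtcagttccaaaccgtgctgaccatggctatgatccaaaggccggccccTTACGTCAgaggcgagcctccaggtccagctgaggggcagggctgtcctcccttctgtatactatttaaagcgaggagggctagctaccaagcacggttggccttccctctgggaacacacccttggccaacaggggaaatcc
The 3 genes with the HNF4 letters did not lie on one side: the difference was -0.30 for Agxt2, -0.26 for Pipox and 0.30 for Kmo. The core of the antioxidant response element, TGACNNNGC, was in 9 of the 34 promoters and in 12.1% of all. These 9 genes were Agxt2, Sardh, Haao, Khk, Hpd, Dao, Fbp1, Cndp2 and Gcsh, each with a lower mean in treated animals, as 86.5% of all tested members had. The short HNF1 site GTTAAT was in 4 of the 34 (Prodh2, Pck1, Miox and Hpd) and in 7.45% of all, and it is contained in the full HNF1 palindrome, which was in none of the 34 and in 0.00299% of all. The plain cAMP element TGACGTCA (1.83% of all), the PPAR direct repeat (0.0538%) and the glucocorticoid receptor palindrome (0.0149%) were in none of the 34. A match describes these letters only, and no match says only that they are not in this window.

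Metabolic transcripts of the proximal tubule stood slightly lower in treated cortex for most members, and no single member passed. Of the 37 members, 32 had a lower mean in treated animals and 5 a higher one, where 56.5% of all genes tested had a lower mean. The median difference was -0.13 over the members and -0.030 over all genes tested. With limma, 0 of the 37 were called, against 4.36% of all genes tested, which split into 3.03% called higher and 1.33% called lower. At unadjusted p under 0.05, 8 members were lower (21.6%, against 13.2% of all genes tested) and 2 higher (against 11.8%). The values of the 3 treated animals lay wholly below those of the 3 controls for 9 members (24.3%, against 18.7% of all genes tested) and wholly above them for 2 (against 14.1%). In a bulk sample, fewer cells of a type and less RNA per cell cannot be told apart.

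**Figure D2:**
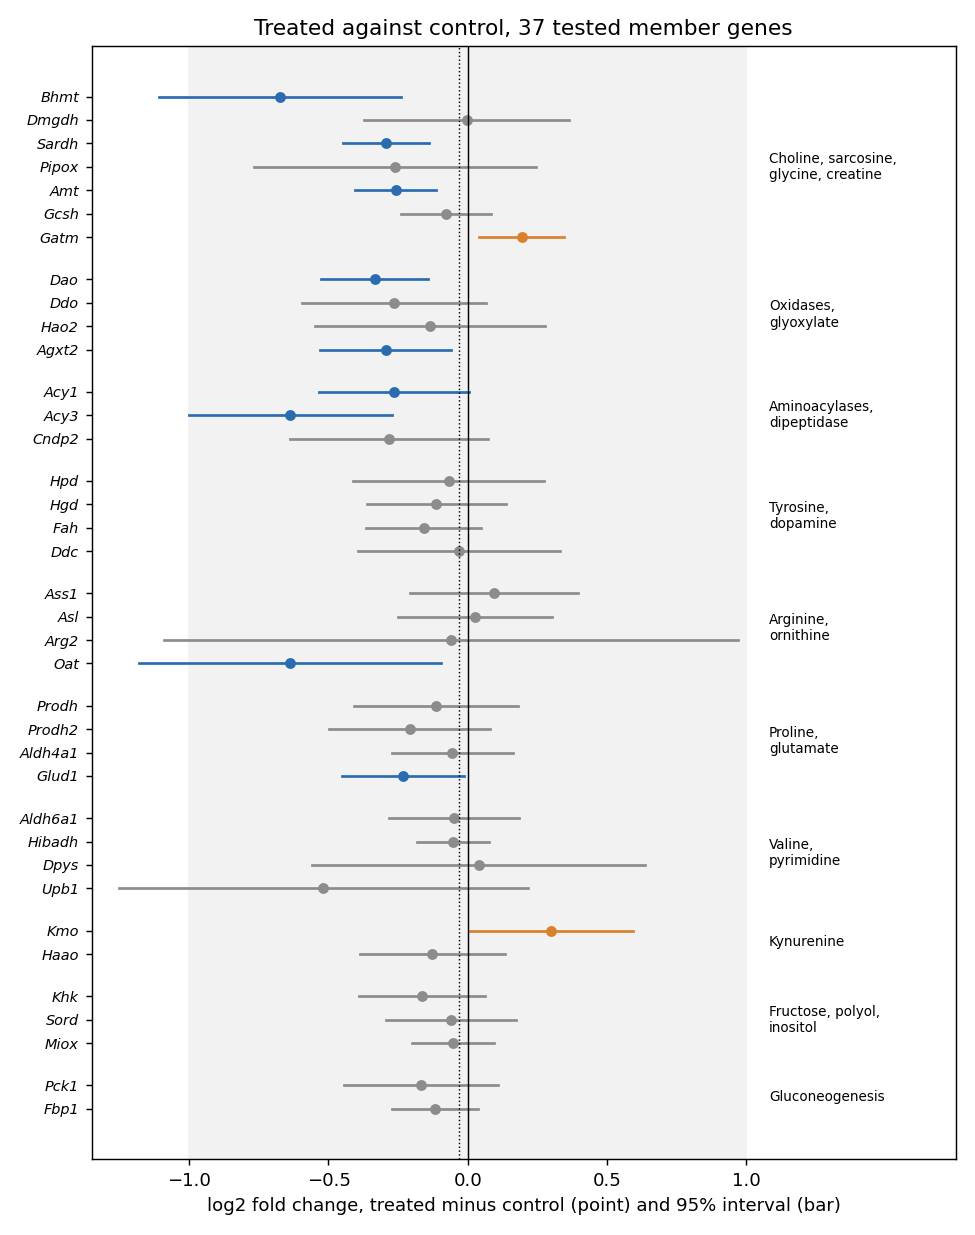
Log2 fold change, treated minus control, of the 37 tested members by pathway, with 95% intervals from limma; blue and orange mark members whose treated values lay wholly below or wholly above the controls, grey those that overlapped, the dotted line is the median of all genes tested and the shaded band spans a 2-fold difference either way. Intervals of 33 members stay inside the band, and 27 span 0.

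The size of these differences was bounded for most members. The 95% interval lay inside a 2-fold difference in either direction for 33 of the 37, and it reached past 2-fold for Bhmt, Arg2, Oat and Upb1. Set against genes of like signal, the members stood out less. Among the 1095 tested genes whose mean level lay between 3.95 and 6.33, the lower and upper quartiles of the members, 72.7% had a lower mean in treated animals, 21.6% were lower at an unadjusted p under 0.05, 32.4% lay wholly below the controls and the median difference was -0.089. Control arrays also differed among themselves. Against the other controls, the members' median stood at 0.11 in control replicate 1, -0.056 in control replicate 2 and -0.11 in control replicate 3. Against all controls it stood at -0.18, -0.11 and -0.096 in the 3 treated animals. The baselines differ, because a control array was left out of its own baseline, which makes the control values larger in size. The control and treated values are therefore not ranked against each other here. Without control replicate 3, the array with the liver transcripts, the members' median difference was -0.20, with 33 members lower and 0 called. Without control replicate 2 it was -0.14, with 32 lower and 0 called.

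**Figure D3:**
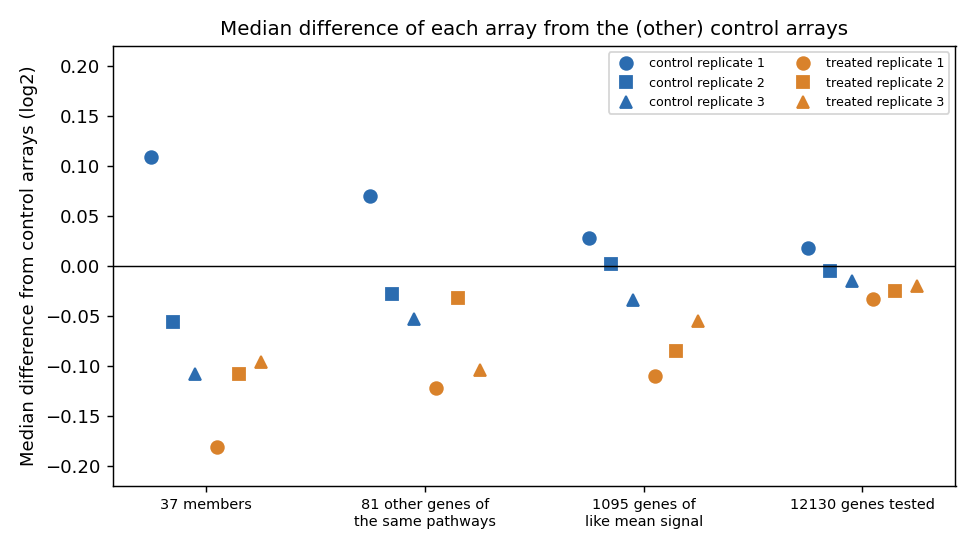
Median log2 difference of each array from the control arrays (for a control array, from the other controls) over the 37 members, 81 other genes of the same pathways, 1095 genes of like mean signal and all 12130 genes tested; blue is control, orange is treated, and the symbol gives the replicate. For the members the controls spread from -0.11 to 0.11 and the treated arrays from -0.18 to -0.096, but on unlike baselines, which enlarge the control values.

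**Figure D4:**
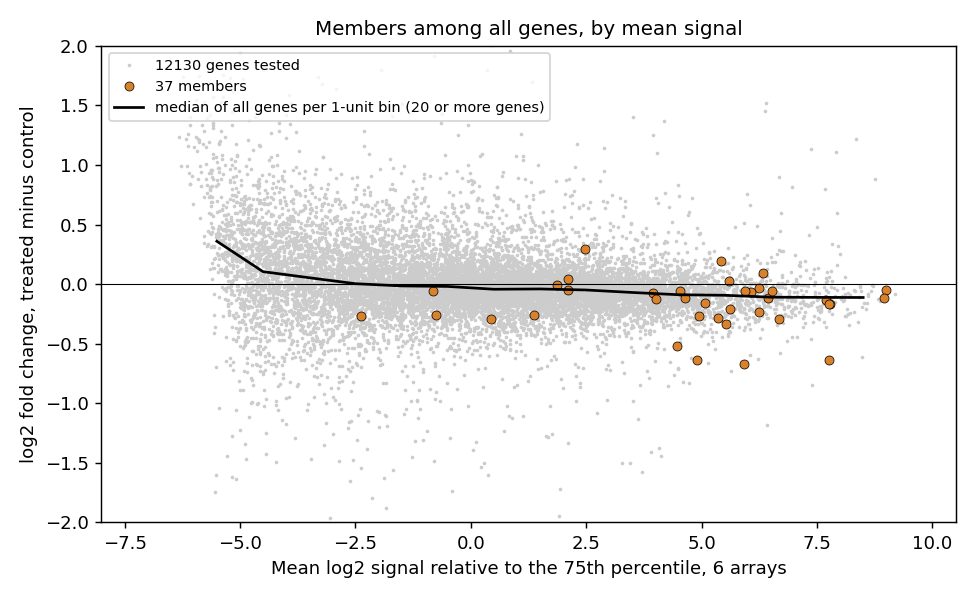
Log2 fold change, treated minus control, against mean log2 signal over the 6 arrays for all 12130 genes tested (grey; 36 genes lie outside the plotted range of 2) and for the 37 members (orange); the black line is the median of all genes in bins of 1 log2 unit that hold at least 20 genes. That median was below 0 at the signal of most members, and Bhmt, Oat, Acy3 and Upb1 had the lowest fold changes of the members.

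Choline, sarcosine and glycine enzymes held the members nearest to the threshold. Some of these enzymes turn choline-derived betaine into dimethylglycine, sarcosine and then glycine, with methyl groups taken off on the way. Sardh, which encodes sarcosine dehydrogenase, stood at 0.59, 0.65 and 0.51 in controls and at 0.31, 0.32 and 0.23 in treated animals. The groups did not overlap, and the difference was -0.29 (SE 0.062, interval -0.45 to -0.14, adjusted p = 0.0595). Amt, the aminomethyltransferase of the glycine cleavage system, stood at 1.57, 1.43 and 1.53 against 1.26, 1.23 and 1.25. Its treated values were tightly grouped below all controls, with a difference of -0.26 (SE 0.059, adjusted p = 0.0678). Bhmt, the betaine-homocysteine methyltransferase gene, is described here after its values were seen. It had the largest difference of any member at its chosen probe, from 6.37, 6.14 and 6.29 to 5.93, 5.59 and 5.26 (-0.67, interval -1.11 to -0.24, adjusted p = 0.0889). Its other probe gave -0.87, also with no overlap, and treated replicate 3 was the lowest array at both. Without that array the difference was -0.51.

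Members of the same group did not all stand lower. Dmgdh, the dimethylglycine dehydrogenase gene that acts between Bhmt and Sardh, had nearly equal group means of 1.86 and 1.86, with an interval from -0.37 to 0.36. Pipox, which encodes pipecolic acid and sarcosine oxidase, had a difference of -0.26 (interval -0.77 to 0.24), with control replicate 1 at -0.18 above the other 5 arrays. Gcsh, the carrier protein gene of glycine cleavage, had a difference of -0.078 (SE 0.065). Gatm, which makes the creatine precursor guanidinoacetate from arginine and glycine, stood higher and is also described after its values were seen. Its levels were 5.34, 5.35 and 5.26 in controls and 5.56, 5.53 and 5.44 in treated animals, with no overlap and a difference of 0.19 (SE 0.062, adjusted p = 0.132). The second Gatm probe gave 0.14, again with no overlap.

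**Figure D5:**
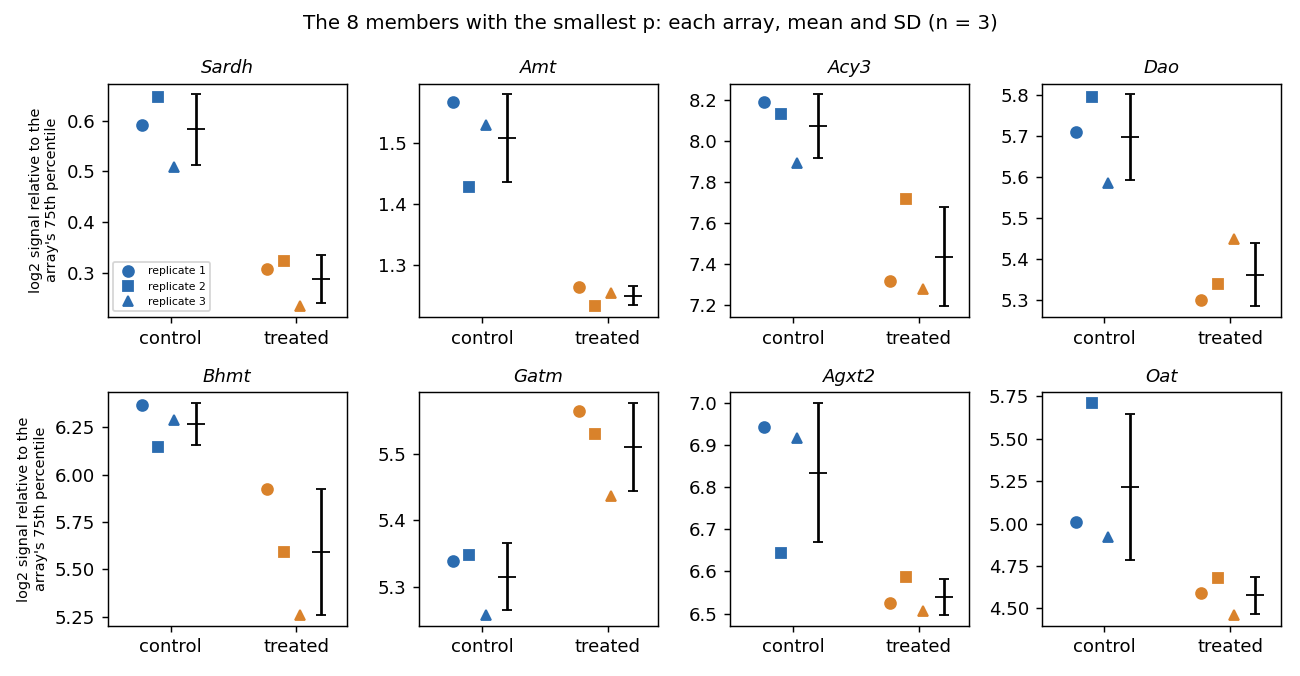
Log2 signal relative to the array's 75th percentile on each array for the 8 members with the smallest p; blue is control, orange is treated, the symbol gives the replicate, and the bar is the mean with its SD (n = 3). Axes differ between panels and do not start at 0; the groups do not overlap for any of the 8, Gatm is the 1 that stands higher in treated animals, and none was called.

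Oxidases and glyoxylate enzymes stood lower in all 4 members, and 0 were called. Dao, the peroxisomal D-amino acid oxidase, stood at 5.71, 5.80 and 5.59 in controls and 5.30, 5.34 and 5.45 in treated animals. The groups did not overlap and the difference was -0.33 (SE 0.078, interval -0.53 to -0.14, adjusted p = 0.0704). Agxt2, the mitochondrial aminotransferase of glyoxylate and methylarginines, stood at 6.94, 6.64 and 6.92 against 6.52, 6.59 and 6.51. Control replicate 2 came close to the treated values, and the difference was -0.30 (SE 0.095, adjusted p = 0.132). Ddo, which oxidises D-aspartate, and Hao2, a peroxisomal hydroxyacid oxidase, overlapped between groups, with differences of -0.27 (SE 0.13) and -0.14 (SE 0.17).

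Aminoacylases free amino acids from their acylated forms, and all 3 members of their group stood lower with 0 called. Acy3, the aminoacylase that acts on acetylated aromatic amino acids and mercapturic acids, stood at 8.19, 8.13 and 7.89 in controls and 7.32, 7.71 and 7.27 in treated animals. That is a 1.55-fold lower mean (difference -0.64, SE 0.15, interval -0.999 to -0.27, adjusted p = 0.0693), and treated replicate 2 was the array nearest to the controls. Acy1, the main cytosolic aminoacylase, stood at 5.10, 5.25 and 4.85 against 4.79, 4.80 and 4.82. The treated values lay together just under the lowest control, with a difference of -0.27 (SE 0.11, adjusted p = 0.204) that was -0.17 without control replicate 2. Cndp2, a cytosolic dipeptidase, had a difference of -0.28 (SE 0.14) and overlapped.

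Tyrosine breakdown had a lower mean in treated animals for all 4 members, each with an interval that spans 0. Fah, the fumarylacetoacetase that ends the pathway, stood at 5.26, 5.19 and 4.998 in controls and 4.96, 5.03 and 4.98 in treated animals (difference -0.16, SE 0.083, adjusted p = 0.298). Hgd, the homogentisate oxidase before it, stood at 6.53, 6.66 and 6.31 against 6.33, 6.39 and 6.44 (difference -0.11, SE 0.10, adjusted p = 0.525). Both overlapped between groups. Without control replicate 3, the array with the liver transcripts, Fah was at -0.24 and Hgd at -0.21. Without control replicate 2 Hgd was at -0.032, without control replicate 1 Fah was at -0.10, and with a normexp background Hgd was at -0.26. Hpd, which forms homogentisate, and Ddc, which makes dopamine from L-DOPA in the tubule, had differences of -0.069 (SE 0.14) and -0.031 (SE 0.15).

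Arginine and ornithine genes split. Oat, the ornithine aminotransferase of mitochondria, stood at 5.01, 5.71 and 4.92 in controls and 4.59, 4.68 and 4.46 in treated animals. The groups did not overlap and the mean was 1.56-fold lower (difference -0.64, SE 0.22, adjusted p = 0.150). Control replicate 2 was well above the other controls, and without it the difference was -0.39. The second Oat probe had the same high array. Slc7a13 was highest on that array too, as given above, and its part in this difference was not tested. Ass1 and Asl, which make arginine from citrulline, had differences of 0.094 (SE 0.12) and 0.026 (SE 0.11). Ass1 stood at 6.47, 6.19 and 6.20 against 6.19, 6.44 and 6.51, with full overlap. Arg2, the mitochondrial arginase, ranged from -1.65 to -0.03 among the controls alone, and its interval ran from -1.09 to 0.97.

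Proline and glutamate enzymes gave small differences, below 0 at the chosen probe of all 4 members but not at every probe, and 0 were called. Glud1, glutamate dehydrogenase, releases ammonia and feeds carbon to gluconeogenesis. It stood at 6.38, 6.38 and 6.32 in controls and 6.12, 6.28 and 5.98 in treated animals, with no overlap and a difference of -0.23 (SE 0.088, adjusted p = 0.181). Its other 2 probes gave -0.30 and -0.26 and did not overlap either. Prodh2, the hydroxyproline dehydrogenase, stood at 5.92, 5.50 and 5.73 against 5.58, 5.49 and 5.45 (difference -0.21, SE 0.12, adjusted p = 0.328) and overlapped through control replicate 2. Without control replicate 1 its difference was -0.10, and without control replicate 2 it was -0.32. Prodh, the proline dehydrogenase, and Aldh4a1, the next enzyme of that route, had differences of -0.11 (SE 0.12) and -0.056 (SE 0.088), and probes of both signs. The other 3 Prodh probes gave 0.10, 0.088 and 0.081, so no direction can be given for this gene.

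Valine and pyrimidine breakdown held 4 members, of which 0 were called, and single animals moved the values of 2 of them. Hibadh, a dehydrogenase of valine breakdown, stood at 5.98, 5.99 and 5.92 in controls and 5.87, 5.92 and 5.92 in treated animals. Its interval of -0.18 to 0.07 was the narrowest of any member. Upb1, which ends pyrimidine breakdown, stood at 4.96, 4.73 and 4.48 against 4.48, 4.57 and 3.56 (difference -0.52, SE 0.30, adjusted p = 0.335). Treated replicate 3 was the low array, and without it the difference was -0.20. Aldh6a1 and Dpys had differences of -0.050 (SE 0.095) and 0.039 (SE 0.24). The interval of Dpys, which acts earlier in pyrimidine breakdown, ran from -0.56 to 0.64, and its difference was -0.23 without control replicate 3 and 0.23 without control replicate 2.

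Kynurenine genes held the other member that stood higher with no overlap. Kmo, the kynurenine hydroxylase, stood at 2.46, 2.40 and 2.10 in controls and 2.53, 2.76 and 2.56 in treated animals (difference 0.30, SE 0.12, adjusted p = 0.194). Control replicate 3 was the low control, and without it the difference was 0.19. Haao, which acts later and forms the precursor of quinolinic acid, stood at 4.06, 4.25 and 3.90 against 4.04, 3.86 and 3.92 (difference -0.13, SE 0.11, adjusted p = 0.496) and overlapped. Without control replicate 2 this was -0.037, and without control replicate 3 it was -0.21.

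Fructose, polyol and inositol enzymes and gluconeogenesis gave small differences with narrow intervals at the chosen probes. Khk, the ketohexokinase that commits fructose to metabolism, stood at 7.86, 8.02 and 7.74 in controls and 7.63, 7.79 and 7.70 in treated animals (difference -0.16, SE 0.092, adjusted p = 0.324), and without control replicate 2 the difference was -0.089. Miox, the inositol oxygenase of the tubule, stood at 9.05, 8.96 and 9.08 against 8.94, 8.98 and 9.02 (difference -0.052, SE 0.059, adjusted p = 0.622). Its dimmer probe differed more, from 7.37, 7.34 and 7.20 to 6.94, 6.70 and 6.95 with no overlap (-0.44, SE 0.094, adjusted p = 0.0695 over 21106 probes), so the size for Miox depends on the probe. Sord, sorbitol dehydrogenase, had a difference of -0.060 (SE 0.095). Fbp1, the fructose bisphosphatase of gluconeogenesis, stood at 9.06, 8.94 and 9.04 against 8.84, 8.91 and 8.95 (difference -0.12, interval -0.27 to 0.04, adjusted p = 0.302). Pck1, the carboxykinase that commits carbon to glucose, stood at 7.91, 7.81 and 7.83 against 7.76, 7.84 and 7.45 (difference -0.17, interval -0.45 to 0.11, adjusted p = 0.401). Treated replicate 3 was its low array, and without it the difference was -0.052.

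The wider set of 88 other genes of the same 10 pathways, of which 81 were tested, held 3 called genes, all lower. These were 3.70% of the 81, against 1.33% of all genes tested called lower and 4.36% called in either direction. Among the 1095 genes of like signal to the members, 29 were called lower. Of the 81, 57 had a lower mean in treated animals (70.4%, against 56.5% of all genes tested and 72.7% of the genes of like signal), with a median difference of -0.11. Agmat, the gene named for agmatinase, fell from 5.06, 5.23 and 5.12 in controls to 4.34, 4.50 and 4.07 in treated animals. That was 1.78-fold (difference -0.83, SE 0.12, adjusted p = 0.0314). Pepd, the dipeptidase that frees proline from peptides, fell 1.36-fold from 5.74, 5.61 and 5.62 to 5.32, 5.21 and 5.11 (adjusted p = 0.0442). Agmat and Pepd were each lower in the 3 treated animals than in the lowest control. With 1 array left out the difference ran from -0.93 to -0.72 for Agmat and from -0.50 to -0.39 for Pepd. In each of those 6 fits 0 of the 81 were called, and the calls over all genes then numbered 0 to 47 in place of 529.

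Elsewhere in those pathways the gene of smallest p did not pass. Gamt, which finishes the creatine precursor made by Gatm, had a difference of -0.53 (SE 0.14, adjusted p = 0.0912), opposite in sign to Gatm. Kyat1, a kynurenine aminotransferase, had a difference of -0.28 (SE 0.090, adjusted p = 0.132). Mccc1, a carboxylase subunit of leucine breakdown, had -0.24 (SE 0.067, adjusted p = 0.105), and Maoa, a monoamine oxidase, -0.16 (SE 0.069, adjusted p = 0.213). Agxt, a glyoxylate aminotransferase, stood higher by 0.35 (SE 0.15, adjusted p = 0.221). In gluconeogenesis all 10 other genes tested had intervals inside a 2-fold difference and spanning 0. Mdh1, the cytosolic malate dehydrogenase, had the smallest p there (0.12, SE 0.063, adjusted p = 0.306). G6pc1, the glucose-6-phosphatase that releases glucose, had a difference of -0.071 (SE 0.12).

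Markers of cell types moved with the groups in part. Of 12 proximal tubule markers, 2 were called, both lower, against 1.33% of all genes tested called lower, and 10 did not pass. The 2 called were Anpep, a brush border peptidase, and Aqp1, a water channel. The median difference of the 12 was -0.11, against -0.089 for the 1095 genes of like signal to the members. The summed signal of the 12 ran from 1363 to 1429 times the 75th percentile in controls and from 1246 to 1280 in treated animals, with no overlap. Of 5 red blood cell markers tested of 7 listed, all lay wholly above the controls and 2 were called, both higher, and their sum ran from 138 to 181 against 214 to 319. Hbb, a globin gene, made up most of that sum. Markers of some other nephron segments stood lower as well. These were all 5 of principal cells (median difference -0.14) and 4 of 5 of the thick ascending limb (median -0.19). Others split, with 2 lower and 2 higher for intercalated cells (median -0.0045). Of the 2 tested for the distal convoluted tubule, 1 was lower and 1 higher. In these 4 lists 0 were called. Acta2, an actin of smooth muscle, rose by 0.50 (adjusted p = 0.0390), the 1 call among 5 markers of fibroblasts and mural cells. The part of these lists in the members' differences was not tested.

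Other ways of processing moved a few members across the threshold. A normexp background called Sardh, Amt and Acy3 lower (adjusted p = 0.0390, 0.0236 and 0.0441), where 7.9% of all genes were called. An intensity trend in the variance prior called these 3 and Dao (adjusted p from 0.0435 to 0.0455), where 6.89% were. In the 6 fits that left out 1 array, 0 members were called, and so were at most 0.385% of all genes (0.00824% without control replicate 2, 0.0082% without control replicate 3 and 0.385% without treated replicate 1). The count of members called was also 0 with median scaling (3.44% of all genes), quantile scaling (3.72%), the deposited value table (4.39%), no filter on dim probes (0.281%), a filter asking for all 6 arrays (5.07%) and the mean of a gene's probes (2.41%). With 1 array left out, the difference ran from -0.33 to -0.26 for Sardh and from -0.30 to -0.23 for Amt. Over all 57 probes of the members, each tested, 46 had a lower mean and 0 were called, against 2.98% of 21106 probes. Of the 16 members with several probes, 14 had probes of 1 sign, the exceptions being Prodh and Aldh4a1.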

How the data were processed

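Total RNA of 6 rat kidney cortices was read on 1-colour arrays. Per the file headers, Agilent's Feature Extraction software, version 10.7.1.1, made the deposited intensity of each spot (the submitters' processing notes give 10.7), which is background-subtracted and detrended, and the design is tied to build rn4. It was not scaled between arrays, since its 75th percentile ran from 837 to 1002. The deposited value table holds a ratio, each array's signal over its own 75th percentile (0.998 times the scaled signal at values of 1 or more; column medians 0.1047, 0.1045, 0.1093, 0.1102, 0.1077 and 0.1082), on a linear scale and not centred by gene, as that comparison settled.

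The processed signal was put on the log2 scale and each array's 75th percentile over 61537 non-control probes was taken off. Outlier spots (1 to 3 per array) were set to missing, and no spot was saturated. Accessions matched to RefSeq (GRCr8) named 28206 probes of 15645 genes. A probe was kept if all 3 arrays of either group had it well above background, the brightest was taken for each gene, and 12130 genes were tested with limma 3.58.1 in R 4.3.3 (lmFit, eBayes; tested on simulated data). The median of all genes differed by -0.030. Normexp (offset 50) used median spot and background signals. Slide could not be fitted as a block, because each slide held 1 group.

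Values on every array are given for the 2 members of smallest p in each pathway, and exceptions are said to be so. Of other pathway genes, the called ones are given, or else the 1 of smallest p; some genes that this rule names are not reported here. The members and lists were chosen with earlier results of these data known. TATA and CCAAT boxes and shortened forms of 2 motifs were also searched and are not given. Arrays correlated at 0.985 to 0.994 across the tested genes, and genes are no independent replicates.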

Additional observations from a re-analysis of the deposited data

How the results depend on the processing

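Among the 37 members, 3 were called with a normexp background and 4 with an intensity trend in the prior. The count was 0 with median scaling, quantile scaling, the deposited value table, no filter, a stricter filter, the mean of a gene's probes, every probe, a fold change of at least 2, the replicate block, and without any 1 array. The members' median difference was -0.16 with median scaling, -0.081 with quantile scaling and from -0.20 (without control replicate 3) to -0.10 (without control replicate 1) when 1 array was left out. The 3 calls among other pathway genes became 7 with normexp, 5 with the trend, and 0 with no filter, with the replicate block, with a fold change of at least 2 and without any 1 array.

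Over all genes tested, the 529 calls became 958 with normexp, 836 with the trend, 292 with the mean of a gene's probes, 44 with no filter and 56 at a fold change of at least 2. Leaving out 1 array gave 0 to 47 calls by limma, with 2460 to 2666 genes at an unadjusted p under 0.05. Of the calls, 69.6% were higher, against 47.9% with normexp, 52.8% with the trend and 84.1% with no filter. The replicate block gave 0 calls, with 2546 genes at an unadjusted p under 0.05. Deviations of same-numbered arrays correlated at -0.12, -0.11 and 0.089. For replicate 3 this was above the values with other numbers (-0.084 to -0.0036), and for replicates 1 and 2 it was below them. With 3 arrays a group, these values cannot settle whether the replicate numbers pair the samples.

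For the 22 members whose arrays are given, 343 of 352 values kept their sign and side of the threshold. With the other filters, every probe, the trend and the replicate block, the difference was the same number as in the main fit. Its sign could not turn in those, so the count of 343 is no measure of how stable the signs are. The 7 that passed it are those of Sardh, Amt, Acy3 and Dao given above. The sign turned for Hibadh with quantile scaling (0.015) and for Ass1 with normexp (-0.032). The cause was not tested in any of these cases. With 3 arrays a group, the test is limited to differences that are large against the spread between animals.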

Other observations

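Some other genes of these pathways varied widely between animals of a group. Cndp1, the dipeptidase that cleaves carnosine, stood at 0.92, 2.16 and 1.09 in controls and 0.71, 0.24 and -0.09 in treated animals, with no overlap and a difference of -1.11 (SE 0.38, limma adjusted p = 0.149). Aadat, an aminotransferase of kynurenine, stood at 2.96, 4.76 and 3.46 against 3.87, 3.04 and 2.68. Control replicate 2 was the highest array for both. These genes were singled out after their values were seen.

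Tat and Cps1, the tyrosine aminotransferase and carbamoyl phosphate synthase genes, were not well above background on any array. Arg1, the liver arginase, stood at -2.14, -2.05 and -1.38 in controls and -2.24, -2.37 and -2.40 in treated animals, highest on the control array that also held the most Alb signal.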
